A study of Rattus norvegicus with 24 samples.

Results

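Proteasome genes were examined in forebrain RNA of rats given D-serine. They were taken as the probe sets whose single gene symbol on the array platform begins with Psma, Psmb, Psmc, Psmd, Psme, Psmf or Psmg. This gave 60 probe sets for 46 genes, of 14217 genes with a single symbol on the array, and each gene was read at its probe set of highest mean. Of the 46 genes, 45 passed a filter on dim probe sets, as did 10205 genes in all. Psmb9, an inducible catalytic subunit, was below it. Psmc3ip, a meiotic recombination factor, and Psme3ip1, a partner of an activator, share the symbol pattern without being subunits, which leaves 43 proteasome genes past the filter. Psmb6, a catalytic beta subunit, and the activator Psme3 were carried only by probe sets that name several genes and are not among the members.

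Male Fisher 344 rats, 11 to 12 weeks old, received 1 dose of vehicle or of D-serine, a co-agonist of NMDA-type glutamate receptors, at 5, 20, 50, 200 or 500 mg/kg. They were killed 96 h later, and total RNA from a section of the forebrain of each rat was hybridised to 1 Affymetrix rat array. There were 4 rats in each of the 6 groups. The labels state neither the route nor which part of the forebrain was taken. Animal numbers run in 1 block per group, rising from vehicle through 500, 200, 50 and 20 to 5 mg/kg. The 5, 20 and 50 mg/kg rats thus have higher numbers than the 200 and 500 mg/kg rats. Dose and any order of handling that followed those numbers cannot be told apart.

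The proteasome is the protease that degrades ubiquitin-tagged proteins in the cytosol and the nucleus. Its barrel-shaped 20S core is built of outer rings of alpha subunits, which gate the entry, and inner rings of beta subunits, some of which cut peptide bonds. The 19S cap has a base, with a ring of ATPases that unfold and thread the substrate, and a lid, which removes ubiquitin. Dedicated chaperones assemble both parts, other activators can replace the cap, and inducible beta subunits take the place of catalytic ones in the immunoproteasome. In neurons the proteasome takes part in the turnover of synaptic proteins.

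Values are given as log2(intensity + 16) after quantile normalization, and differences are log2 differences with the standard error of the fit. A gene is said to have passed where its limma p, adjusted by the Benjamini-Hochberg method over 18626 probe sets, was under 0.05. Before normalization the arrays' median intensities lay between 56 and 103.8. The library labelled 500 mg/kg replicate 4 stood apart: its correlations with the remaining arrays had a median of 0.855, where the next lowest median was 0.957. In it, markers of cerebellum averaged 4.24 from their vehicle means. The 5 listed neuron markers, Snap25, Rbfox3, Camk2a, Nrgn and Tbr1, averaged -1.63. Whether this reflects the region taken or the share of neurons was not tested. In forebrain as labelled, all 5 neuron markers and all 5 striatal markers looked at passed the filter. The log2 ratio of 3' to 5' control probe sets for Gapdh, a measure of how complete the labelled RNA was, differed between the groups. It averaged 0.82 ± 0.06 in vehicle rats, 0.19 ± 0.07 at 5, 0.18 ± 0.04 at 20, 0.34 ± 0.17 at 50, 0.60 ± 0.21 at 200 and 0.75 ± 0.14 at 500 mg/kg (SD, n = 4 each).

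Read at their probe sets of highest mean, proteasome genes passed against vehicle at 5 and 20 mg/kg and not at 50, 200 or 500 mg/kg, and most of them were higher. At 5 mg/kg the lid subunit Psmd8, the beta subunit Psmb1 and the alpha subunit Psma5 rose and the base subunit Psmd1 fell, which is 4 of 45 members, where 3.24% of all genes passed. The 3 that rose stand beside 1.83% of all genes higher, and the 1 that fell beside 1.41% lower. At 20 mg/kg the same 4 genes passed in the same direction and the alpha subunit Psma1 and the lid subunit Psmd6 also rose, which is 6 of 45 where 5.16% of all genes passed. The 5 that rose stand beside 2.65% of all genes higher and the 1 that fell beside 2.52% lower. Folds of the 6 genes lay between 0.778 and 1.29.

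No member passed in limma at 50 mg/kg, where 0.402% of all genes did, and 6 of 45 members, against 10% of all genes, had an unadjusted p under 0.05. None passed at 200 mg/kg or 500 mg/kg, where 0% of all genes did. An unadjusted p under 0.05 was held at these doses by 3 and 1 of 45 members, against 4.4% and 6.7% of all genes. The count at 500 mg/kg was also 0 without replicate 4, the array that stood apart. At 5 and 20 mg/kg the unadjusted counts were 12 and 15 of 45, against 14.8% and 16.9% of all genes. The median log2 difference of the 45 members was 0.06 at 5 mg/kg, 0.09 at 20, 0.05 at 50, 0.04 at 200 and 0.0088 at 500 mg/kg, while over all genes it lay between -0.0075 and 0.0048. With arrays centred on their medians the members' median was above that of all genes by 0.12 at 5 mg/kg and 0.15 at 20 mg/kg, against 0.06 and 0.10 after quantile normalization. The 5 comparisons share the 4 vehicle arrays. In a bulk piece of tissue, fewer cells of a type and less RNA per cell cannot be told apart.

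**Figure D1:**
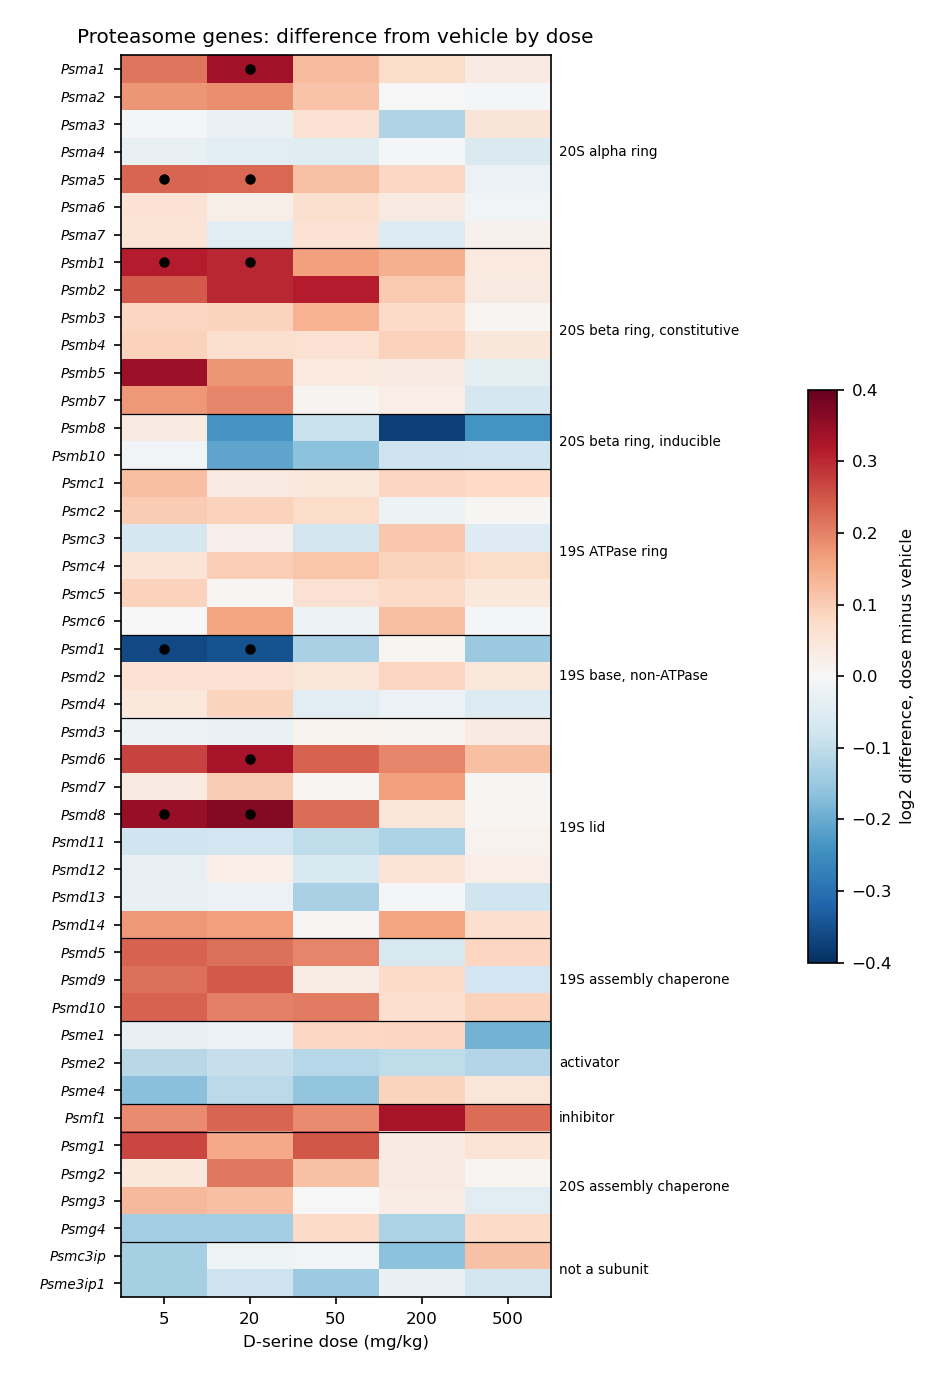
Log2 difference from vehicle for each of the 45 members past the filter (rows, grouped by role) at each D-serine dose in mg/kg (columns). The rows include Psmc3ip and Psme3ip1, which are no subunits. Red is higher and blue lower than vehicle, differences past the ends of the colour scale take its end colour, and a black point marks an adjusted p under 0.05: there are 4 points at 5 mg/kg, 6 at 20 mg/kg and none at 50, 200 or 500 mg/kg.

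Counting arrays rather than p-values, all 4 arrays lay above all 4 vehicle arrays for 8 members at 5 mg/kg, where 5.64% of all genes did, and for 10 members at 20 mg/kg, where 5.97% did. The count was 4 members at 50 mg/kg against 3.13% of all genes, 3 at 200 mg/kg against 1.54%, and 0 at 500 mg/kg against 1.22%. All 4 arrays lay below vehicle for 0 members at 5 mg/kg against 5.23% of all genes, and for 1 member, Psmd1, at 20 mg/kg against 6.24%. For 50, 200 and 500 mg/kg the members below were 0, 1 and 0, against 3.13%, 1.66% and 1.41% of all genes, the 1 at 200 mg/kg being the core assembly chaperone Psmg4. The 10 members above vehicle at 20 mg/kg were Psma1, Psma5, Psmb1, Psmb2, Psmd6, Psmd8, Psmd14, the cap chaperones Psmd5 and Psmd9, and the inhibitor Psmf1.

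In the alpha ring, which gates the core, all 7 genes were measured. Psma5 (1387884_at) had log2 values of 9.42, 9.47, 9.52 and 9.50 in vehicle rats, 9.71, 9.71, 9.75 and 9.69 in 5 mg/kg rats, 9.76, 9.74, 9.73 and 9.61 in 20 mg/kg rats, 9.58, 9.62, 9.54 and 9.63 in 50 mg/kg rats, 9.52, 9.53, 9.66 and 9.52 in 200 mg/kg rats, and 9.44, 9.55, 9.46 and 9.37 in 500 mg/kg rats. All arrays at 5, 20 and 50 mg/kg lay above the vehicle arrays, while 200 and 500 mg/kg overlapped them. Its difference from vehicle was 0.23 ± 0.06 at 5 mg/kg (adjusted p = 0.0195) and 0.23 ± 0.06 at 20 mg/kg (adjusted p = 0.0151), a fold of 1.18 and 1.17. Without vehicle replicate 1 the adjusted p at 5 and 20 mg/kg was 0.0676 and 0.0532, and without 5 mg/kg replicate 3 it was 0.0647 at 5 mg/kg.

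Psma1 (1398778_at) had log2 values of 9.00, 9.31, 9.11 and 9.19 in vehicle rats, 9.46, 9.28, 9.40 and 9.32 in 5 mg/kg rats, 9.64, 9.49, 9.42 and 9.40 in 20 mg/kg rats, 9.10, 9.23, 9.24 and 9.54 in 50 mg/kg rats, 9.08, 9.12, 9.34 and 9.36 in 200 mg/kg rats, and 9.01, 9.30, 9.03 and 9.40 in 500 mg/kg rats. The 4 arrays at 20 mg/kg lay above every vehicle array, and those of the other doses overlapped vehicle. It rose by 0.34 ± 0.10 at 20 mg/kg (adjusted p = 0.0484), close to the threshold, and leaving out 1 array lost the call in 17 of 24 cases. At 5 mg/kg its difference was 0.21 ± 0.10 (adjusted p = 0.274).

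Psma2 (1398856_at) had log2 values of 9.33, 9.60, 9.44 and 9.48 in vehicle rats, 9.61, 9.52, 9.65 and 9.79 in 5 mg/kg rats, 9.81, 9.53, 9.66 and 9.60 in 20 mg/kg rats, 9.49, 9.63, 9.59 and 9.60 in 50 mg/kg rats, 9.42, 9.35, 9.58 and 9.51 in 200 mg/kg rats, and 9.39, 9.52, 9.43 and 9.47 in 500 mg/kg rats, and every dose overlapped vehicle. Its differences of 0.18 ± 0.08 at 5 mg/kg and 0.19 ± 0.08 at 20 mg/kg did not pass (adjusted p = 0.204 and 0.151). The other alpha subunits, Psma3, Psma4, Psma6 and Psma7, differed by between -0.04 and 0.06 at 5 and 20 mg/kg and did not pass.

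In the constitutive beta ring, 6 genes were measured, and all 6 had a positive difference at 5, 20, 50 and 200 mg/kg and 4 of 6 at 500 mg/kg. Psmb1 (1398812_at), a non-catalytic subunit, had log2 values of 9.95, 10.12, 9.98 and 9.91 in vehicle rats, 10.31, 10.27, 10.33 and 10.31 in 5 mg/kg rats, 10.31, 10.29, 10.34 and 10.23 in 20 mg/kg rats, 9.94, 10.17, 10.24 and 10.26 in 50 mg/kg rats, 10.04, 10.02, 10.28 and 10.19 in 200 mg/kg rats, and 10.07, 10.03, 10.08 and 9.92 in 500 mg/kg rats. The arrays at 5 and 20 mg/kg all lay above vehicle, and the higher doses overlapped it. It rose by 0.31 ± 0.07 at 5 mg/kg (adjusted p = 0.0139, fold 1.24) and by 0.30 ± 0.07 at 20 mg/kg (adjusted p = 0.0132, fold 1.23). Both calls held when any 1 of the 24 arrays was left out, with adjusted p up to 0.0490.

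Psmb5 (1371348_at), which carries the chymotrypsin-like activity, had log2 values of 9.89, 10.26, 10.28 and 10.05 in vehicle rats, 10.47, 10.48, 10.49 and 10.41 in 5 mg/kg rats, 10.47, 10.37, 10.36 and 9.98 in 20 mg/kg rats, 9.94, 10.32, 10.25 and 10.13 in 50 mg/kg rats, 10.0001, 10.12, 10.34 and 10.16 in 200 mg/kg rats, and 10.24, 10.13, 9.99 and 9.97 in 500 mg/kg rats. All 4 arrays at 5 mg/kg lay above vehicle, and all other doses overlapped it. The difference of 0.34 ± 0.11 at 5 mg/kg did not pass (adjusted p = 0.0658), nor did 0.18 ± 0.11 at 20 mg/kg (adjusted p = 0.368). Psmb2, a non-catalytic subunit, differed by 0.24 ± 0.11, 0.30 ± 0.11 and 0.31 ± 0.11 at 5, 20 and 50 mg/kg (adjusted p = 0.227, 0.0966 and 0.186). Psmb7, the trypsin-like subunit, differed by 0.17 ± 0.08 and 0.20 ± 0.08 at 5 and 20 mg/kg (adjusted p = 0.235 and 0.14). Psmb3 and Psmb4 differed by 0.09 ± 0.09 and 0.09 ± 0.05 at 5 mg/kg and did not pass.

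Of the inducible catalytic subunits, which interferon raises, neither Psmb8 nor Psmb10 passed. Psmb8 (1367786_at), which replaces Psmb5, had log2 values of 6.26, 6.33, 6.44 and 5.75 in vehicle rats, 6.09, 6.26, 6.41 and 6.16 in 5 mg/kg rats, 5.89, 6.10, 6.41 and 5.44 in 20 mg/kg rats, 6.40, 6.15, 6.15 and 5.72 in 50 mg/kg rats, 5.90, 6.26, 5.85 and 5.27 in 200 mg/kg rats, and 6.09, 5.82, 5.92 and 5.995 in 500 mg/kg rats. These overlapped in every group, with an SD of up to 0.41 at 200 mg/kg. Its differences ran from -0.37 ± 0.21 at 200 mg/kg to 0.03 ± 0.21 at 5 mg/kg, and none passed (adjusted p = 0.975 and 0.958). Psmb10 differed by -0.01 ± 0.10 at 5 mg/kg and -0.21 ± 0.10 at 20 mg/kg (adjusted p = 0.972 and 0.217). Psmb9 (1370186_at), below the filter and so not tested, averaged 5.91 ± 0.23 in vehicle rats, 5.80 ± 0.15 at 5 mg/kg, 5.59 ± 0.27 at 20, 5.76 ± 0.26 at 50, 5.70 ± 0.36 at 200 and 5.62 ± 0.30 at 500 mg/kg (SD, n = 4 each). The difference between inducible and constitutive subunits was not tested.

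The 6 ATPases of the cap, Psmc1 to Psmc6, did not pass at any dose, and none had an unadjusted p under 0.05 against vehicle. Psmc1 (1398792_at) had log2 values of 9.55, 9.70, 9.56 and 9.53 in vehicle rats, 9.75, 9.72, 9.64 and 9.70 in 5 mg/kg rats, 9.46, 9.67, 9.67 and 9.67 in 20 mg/kg rats, 9.54, 9.58, 9.61 and 9.77 in 50 mg/kg rats, 9.62, 9.61, 9.70 and 9.75 in 200 mg/kg rats, and 9.54, 9.67, 9.62 and 9.83 in 500 mg/kg rats. All doses overlapped vehicle, and the differences lay between 0.04 ± 0.07 at 20 mg/kg and 0.12 ± 0.07 at 5 mg/kg. The ring's median difference was 0.07 at 5 mg/kg, 0.07 at 20, 0.05 at 50, 0.09 at 200 and 0.02 at 500 mg/kg.

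Among the 3 other base subunits, Psmd1 (1369992_at), the large scaffold next to the ATPase ring, was the only member that fell against vehicle. Its log2 values were 8.58, 8.62, 8.45 and 8.42 in vehicle rats, 8.43, 8.10, 7.83 and 8.26 in 5 mg/kg rats, 8.13, 8.33, 7.95 and 8.26 in 20 mg/kg rats, 8.46, 8.36, 8.29 and 8.43 in 50 mg/kg rats, 8.66, 8.50, 8.53 and 8.41 in 200 mg/kg rats, and 8.44, 8.40, 8.43 and 8.202 in 500 mg/kg rats. All arrays at 20 mg/kg lay below vehicle, while 1 array at 5 mg/kg, at 8.43, reached the vehicle range. The difference was -0.36 ± 0.11 at 5 mg/kg (adjusted p = 0.0491) and -0.35 ± 0.11 at 20 mg/kg (adjusted p = 0.046), a fold of 0.778 and 0.786. Both p-values were near the threshold, and leaving out 1 array lost the call in 20 of 24 cases at 5 mg/kg and in 17 of 24 at 20 mg/kg. The fall depended on scaling, since the difference at 20 mg/kg was 0.076 in the values as deposited, and with median centring it did not pass at either dose (adjusted p = 0.171 and 0.198). Psmd2, its partner scaffold, differed by 0.06 ± 0.07 and 0.06 ± 0.07 at 5 and 20 mg/kg, and the ubiquitin receptor Psmd4 by 0.04 ± 0.07 and 0.09 ± 0.07, and neither passed.

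In the lid, 8 genes were measured. Among members at their probe sets of highest mean, Psmd8 (1389519_at) had the smallest adjusted p in each comparison in which any passed. Its log2 values were 8.45, 8.60, 8.58 and 8.57 in vehicle rats, 8.93, 8.86, 8.95 and 8.87 in 5 mg/kg rats, 8.92, 8.95, 8.99 and 8.81 in 20 mg/kg rats, 8.71, 8.80, 8.81 and 8.78 in 50 mg/kg rats, 8.43, 8.63, 8.72 and 8.62 in 200 mg/kg rats, and 8.60, 8.63, 8.68 and 8.33 in 500 mg/kg rats. All arrays at 5, 20 and 50 mg/kg lay above vehicle, and those at 200 and 500 mg/kg overlapped it. It rose by 0.35 ± 0.08 at 5 mg/kg (adjusted p = 0.00893, fold 1.27) and 0.37 ± 0.08 at 20 mg/kg (adjusted p = 0.00442, fold 1.29). At 50 mg/kg the difference of 0.22 ± 0.08 did not pass (adjusted p = 0.178). The calls at 5 and 20 mg/kg held with any 1 array left out.

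Psmd6 (1371851_at), a helical lid subunit, had log2 values of 9.34, 9.85, 9.73 and 9.68 in vehicle rats, 9.85, 9.98, 9.92 and 9.94 in 5 mg/kg rats, 10.04, 10.05, 9.98 and 9.86 in 20 mg/kg rats, 9.75, 9.93, 10.01 and 9.85 in 50 mg/kg rats, 9.72, 9.73, 10.0001 and 9.93 in 200 mg/kg rats, and 9.73, 9.80, 9.66 and 9.89 in 500 mg/kg rats. The 20 mg/kg arrays lay above vehicle by little, with 9.86 the lowest at that dose and 9.85 the highest in vehicle rats. It rose by 0.33 ± 0.09 at 20 mg/kg (adjusted p = 0.0287), where vehicle replicate 1 at 9.34 was the lowest array. Without that array the difference was 0.23 and did not pass (adjusted p = 0.125), and leaving out 1 array lost the call in 5 of 24 cases, those of 20 mg/kg replicates 1, 2 and 3 and vehicle replicates 1 and 4. Psmd11 (1374712_at), a scaffold of the lid, had log2 values of 9.94, 10.07, 9.89 and 9.92 in vehicle rats, 9.86, 9.84, 9.85 and 9.93 in 5 mg/kg rats, 9.96, 9.90, 9.80 and 9.83 in 20 mg/kg rats, 9.91, 9.79, 9.95 and 9.75 in 50 mg/kg rats, 9.83, 9.89, 9.86 and 9.73 in 200 mg/kg rats, and 9.78, 9.84, 9.87 and 10.38 in 500 mg/kg rats. Its groups overlapped throughout, and 500 mg/kg replicate 4 at 10.38 was far above the rest of its group. Psmd3, Psmd7, Psmd12 and Psmd13 did not pass, with differences at 20 mg/kg of -0.03, 0.10, 0.03 and -0.02.

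**Figure D2:**
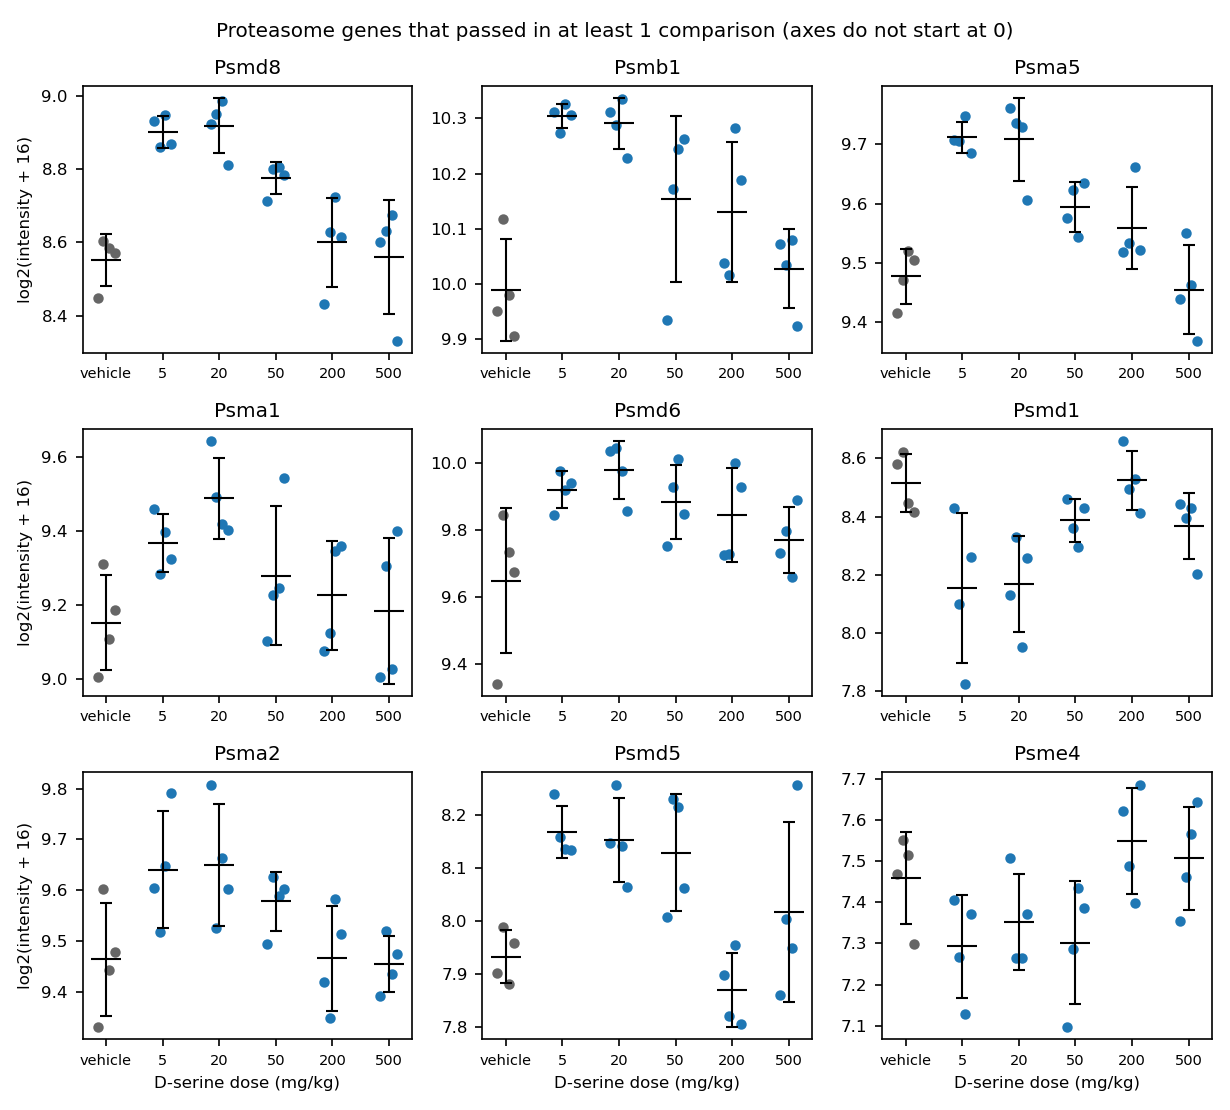
Log2(intensity + 16) of the 9 proteasome genes that passed in at least 1 comparison, by D-serine dose in mg/kg, with 1 point per array, the group mean (long bar) and the SD (short bars, n = 4). Psmd8, Psmb1 and Psma5 are higher at 5 and 20 mg/kg than in vehicle, with no overlap, and overlap vehicle at 200 and 500 mg/kg. The axes do not start at 0.

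Psmd14, the lid's deubiquitinase, was read by 3 probe sets that gave different answers. At the one of highest mean (1383429_at) it had log2 values of 9.46, 9.47, 9.53 and 9.55 in vehicle rats, 9.75, 9.51, 9.75 and 9.69 in 5 mg/kg rats, 9.79, 9.63, 9.64 and 9.60 in 20 mg/kg rats, 9.42, 9.48, 9.47 and 9.66 in 50 mg/kg rats, 9.66, 9.58, 9.76 and 9.63 in 200 mg/kg rats, and 9.44, 9.43, 9.61 and 9.79 in 500 mg/kg rats, and did not pass at any dose (0.17 ± 0.08 at 5 mg/kg, adjusted p = 0.244). At this probe set all arrays at 20 and 200 mg/kg lay above vehicle, and those at 5, 50 and 500 mg/kg overlapped it. The second (1394082_at) read 7.74, 7.88, 7.82 and 8.06 in vehicle rats, 8.53, 8.44, 8.58 and 8.35 in 5 mg/kg rats, 8.70, 8.63, 8.69 and 8.42 in 20 mg/kg rats, 8.26, 8.48, 8.54 and 8.42 in 50 mg/kg rats, 7.93, 7.98, 8.36 and 8.06 in 200 mg/kg rats, and 7.69, 8.34, 7.97 and 7.77 in 500 mg/kg rats. Every array at 5, 20 and 50 mg/kg was above every vehicle array there, and 200 and 500 mg/kg overlapped vehicle. Its difference was 0.60 ± 0.12 at 5, 0.73 ± 0.12 at 20 and 0.55 ± 0.12 at 50 mg/kg (adjusted p = 0.00461, 0.000596 and 0.0311), a fold of 1.52, 1.66 and 1.46. The other (1386073_at) passed against vehicle only at 20 mg/kg, at 0.43 ± 0.11 (adjusted p = 0.0167). With any probe set of a gene allowed to count, 1 member, Psmd14, passed at 50 mg/kg. Of all probe sets tested, 5.52% passed at 5 mg/kg, 8.48% at 20, 0.864% at 50, 0% at 200 and 0.00537% at 500 mg/kg, with 5.93% in the F test and 10.2% between low and high doses. Which part of the transcript each probe set reads was not analysed here.

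**Figure D3:**
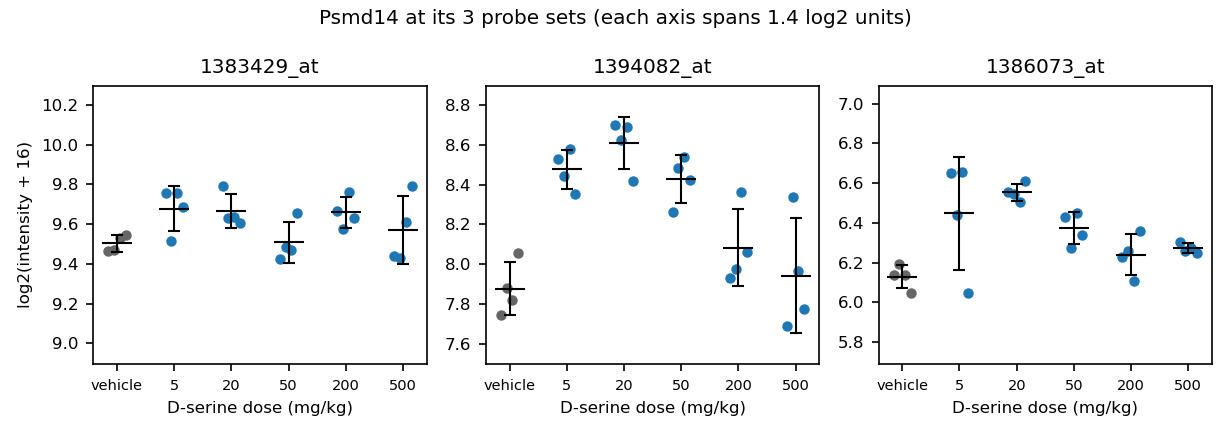
Log2(intensity + 16) of Psmd14 at its 3 probe sets by D-serine dose in mg/kg, with 1 point per array, the group mean and the SD (n = 4). Each axis spans the same log2 range, so that the 3 probe sets can be compared. At 1394082_at all arrays at 5, 20 and 50 mg/kg lie above vehicle. At 1383429_at those at 20 and 200 mg/kg do, and those at 5, 50 and 500 mg/kg overlap vehicle.

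The assembly chaperones of the cap, Psmd5, Psmd9 and Psmd10, which hold the ATPases before they join, all had positive differences at 5 and 20 mg/kg, and none passed there. Psmd5 (1372267_at) had log2 values of 7.90, 7.99, 7.88 and 7.96 in vehicle rats, 8.24, 8.16, 8.14 and 8.13 in 5 mg/kg rats, 8.15, 8.26, 8.14 and 8.06 in 20 mg/kg rats, 8.01, 8.23, 8.22 and 8.06 in 50 mg/kg rats, 7.90, 7.82, 7.96 and 7.81 in 200 mg/kg rats, and 7.86, 8.003, 7.95 and 8.26 in 500 mg/kg rats. All arrays at 5, 20 and 50 mg/kg lay above vehicle, while those at 200 and 500 mg/kg did not. The differences were 0.24 ± 0.08, 0.22 ± 0.08 and 0.20 ± 0.08 at 5, 20 and 50 mg/kg (adjusted p = 0.0963, 0.1 and 0.289). Psmd9 differed by 0.22 ± 0.11 and 0.24 ± 0.11, and Psmd10 by 0.24 ± 0.09 and 0.20 ± 0.09, at 5 and 20 mg/kg.

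Of the chaperones that build the core, Psmg1 differed by 0.27 ± 0.13 at 5 mg/kg and 0.15 ± 0.13 at 20 mg/kg, Psmg2 by 0.04 ± 0.09 and 0.21 ± 0.09, Psmg3 by 0.13 ± 0.09 and 0.12 ± 0.09, and Psmg4 by -0.14 ± 0.09 and -0.14 ± 0.09. None passed. The activator subunits Psme1 and Psme2, which interferon also raises, differed by -0.02 ± 0.14 and -0.09 ± 0.13 at 20 mg/kg without passing. Psmf1, an inhibitor of the core, had its largest difference at 200 mg/kg, 0.33 ± 0.09 (adjusted p = 0.755), with all 4 arrays above vehicle. It was the only member with an unadjusted p under 0.05 at 500 mg/kg, at 0.22 ± 0.09 (adjusted p = 0.712), and none of its differences passed. Psmc3ip and Psme3ip1, which are no subunits, differed by -0.02 ± 0.15 and -0.08 ± 0.09 at 20 mg/kg.

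Core and cap were set side by side as the mean, per array, of each gene's distance from its vehicle mean. Over all 15 core genes measured this was 0.13 ± 0.02 at 5 mg/kg, 0.09 ± 0.08 at 20, 0.06 ± 0.03 at 50, 0.0023 ± 0.06 at 200 and -0.02 ± 0.04 at 500 mg/kg (SD, n = 4 each), with vehicle arrays from -0.08 to 0.06. Over the 13 constitutive core genes, without Psmb8 and Psmb10, it was 0.15 ± 0.02 at 5 mg/kg, 0.14 ± 0.07 at 20, 0.09 ± 0.06 at 50, 0.04 ± 0.08 at 200 and 0.0021 ± 0.05 at 500 mg/kg (SD, n = 4 each), with vehicle arrays from -0.09 to 0.07. Over the 17 cap genes it was 0.04 ± 0.02, 0.06 ± 0.02, 0.02 ± 0.01, 0.06 ± 0.05 and 0.01 ± 0.04 at the same doses, with vehicle arrays from -0.04 to 0.05. With or without the inducible subunits, the core mean was above the cap mean at 5, 20 and 50 mg/kg and below it at 200 and 500 mg/kg. Each gene entered at its probe set of highest mean, Psmd14 at 1383429_at, and the order with other probe sets was not examined. At 20 mg/kg the arrays' core minus cap over all 15 core genes ran from -0.11 to 0.10, against -0.06 to 0.08 in vehicle rats, and the groups overlapped. These orders are descriptions, since no test was made of a mean over members.

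Within the core, the beta ring was further above vehicle than the alpha ring at 5 and 20 mg/kg. The 6 constitutive beta genes averaged 0.21 ± 0.02 at 5 mg/kg, with arrays from 0.19 to 0.23, against vehicle arrays from -0.15 to 0.11, so that the groups did not overlap. At 20 mg/kg the arrays ran from 0.07 to 0.24 and overlapped vehicle through replicate 4. The alpha ring averaged 0.10 ± 0.03 at 5 mg/kg and 0.09 ± 0.07 at 20 mg/kg. In the cap, the lid averaged 0.08 ± 0.02 at 5 mg/kg and 0.11 ± 0.0057 at 20 mg/kg, the ATPase ring 0.05 ± 0.03 and 0.07 ± 0.03, and the other base subunits -0.09 ± 0.09 and -0.07 ± 0.05. The cap chaperones stood higher than any ring, at 0.23 ± 0.07 and 0.22 ± 0.11, over 3 genes.

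Taken as medians of the fitted differences, all 15 core genes minus the cap came to 0.05 at 5 mg/kg, 0.03 at 20, 0.05 at 50, -0.04 at 200 and -0.02 at 500 mg/kg. At 20 mg/kg the sign turned without vehicle replicate 1, to -0.02, and without 20 mg/kg replicate 1, to -0.00073. With the inducible subunits left out, core minus cap came to 0.13 at 5 mg/kg, 0.12 at 20, 0.06 at 50, -0.04 at 200 and -0.0080 at 500 mg/kg. At 20 mg/kg this value was 0.032 without vehicle replicate 1. With the Gapdh ratio as a covariate it was -0.11 at 5 mg/kg, -0.14 at 20 and -0.031 at 50 mg/kg, and over all 15 core genes -0.08, -0.13 and -0.0013, which turns the direction.

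**Figure D4:**
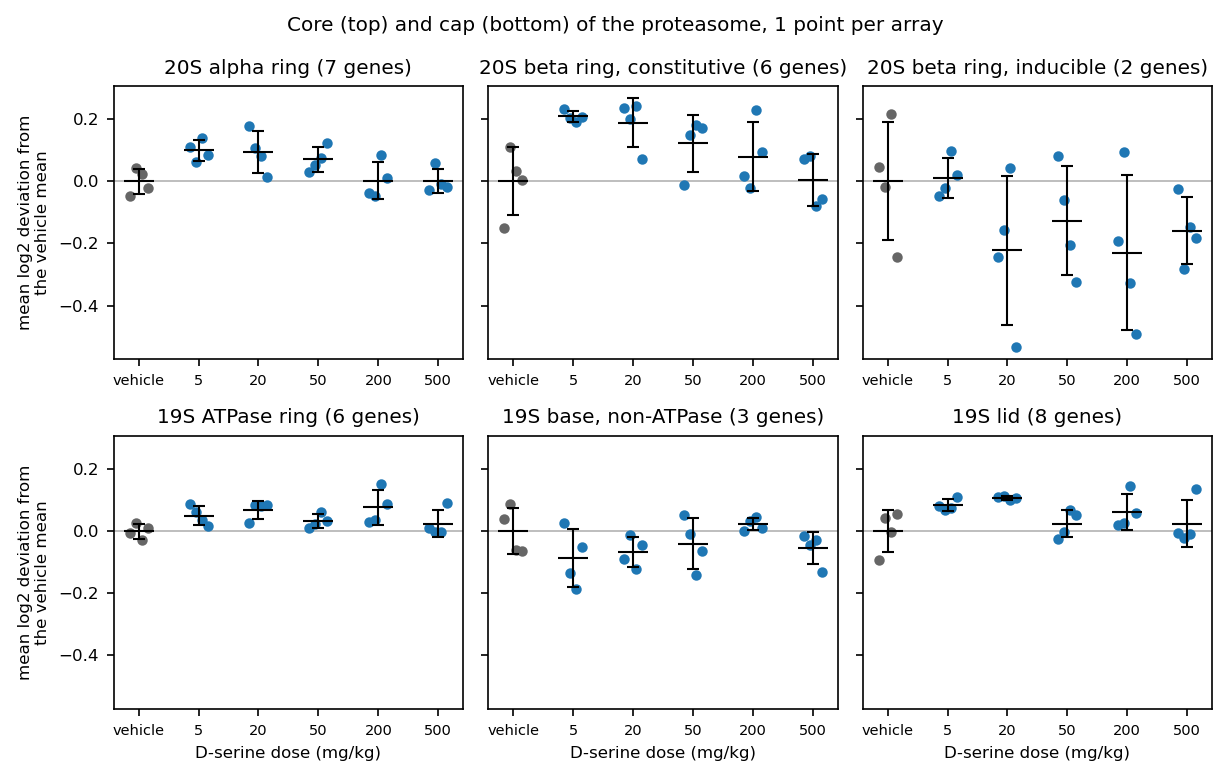
Mean log2 deviation from the vehicle mean for 6 sets of subunits, by D-serine dose in mg/kg, with 1 point per array, the group mean and the SD (n = 4). The constitutive beta ring at 5 mg/kg lies above all vehicle arrays, and the arrays of the inducible subunits at 5 mg/kg run from -0.05 to 0.10, within the vehicle range of -0.24 to 0.22. The inducible mean is -0.22 ± 0.24 at 20, -0.13 ± 0.18 at 50, -0.23 ± 0.25 at 200 and -0.16 ± 0.11 at 500 mg/kg. The arrays of these doses overlap vehicle and reach down to -0.53 at 20 mg/kg and -0.49 at 200 mg/kg.

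The doses were also compared with each other, 5, 20 and 50 mg/kg against 200 and 500 mg/kg, which uses no vehicle array. This grouping of doses was chosen with earlier results of these data known, so its p-values are not those of a split fixed beforehand. Of 45 members 5 were higher and 1 lower at the low doses, where 6.89% of all genes passed, 3.48% higher and 3.41% lower, and 15 members had an unadjusted p under 0.05, as did 21.5% of all genes. Psmd8 was higher by 0.29 ± 0.05 (adjusted p = 0.0008), the chaperone Psmd5 by 0.21 ± 0.05 (adjusted p = 0.0142) and Psmb1 by 0.17 ± 0.05 (adjusted p = 0.0263). Psma5 was higher by 0.16 ± 0.04 (adjusted p = 0.00754) and Psma2 by 0.16 ± 0.05 (adjusted p = 0.0395). No member kept all 12 low-dose arrays above or below all 8 high-dose arrays, where 0.147% of all genes lay above and 0.0686% below. With any 1 array left out, the calls of Psmd8, Psmd5 and Psma5 held, and that of Psma2 was lost in 11 of 24 cases and that of Psmb1 without 200 mg/kg replicate 1 or replicate 2.

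Psme4 (1368817_at), an activator that binds the end of the core, was lower at the low doses, with a difference of -0.21 ± 0.06 (adjusted p = 0.0352). Its log2 values were 7.47, 7.55, 7.52 and 7.30 in vehicle rats, 7.41, 7.27, 7.13 and 7.37 in 5 mg/kg rats, 7.51, 7.26, 7.26 and 7.37 in 20 mg/kg rats, 7.10, 7.29, 7.44 and 7.39 in 50 mg/kg rats, 7.62, 7.49, 7.398 and 7.69 in 200 mg/kg rats, and 7.35, 7.46, 7.57 and 7.64 in 500 mg/kg rats, and all groups overlapped. A second probe set gave -0.21 ± 0.09 and another 0.10 ± 0.09, and neither passed. The call was lost without 500 mg/kg replicate 4, the array that stood apart (adjusted p = 0.0764), and without 9 other arrays, and in the values as deposited the difference was 0.071. Psmd7, a lid subunit that partners Psmd14, passed at its second probe set (1379322_at) with 0.30 ± 0.08 (adjusted p = 0.0181) but not at its first, -0.04 ± 0.04. Psmd14 at 1394082_at ran from 8.26 to 8.70 over the low-dose arrays and from 7.69 to 8.36 over the high-dose arrays. At 1383429_at, its probe set of highest mean, the ranges were 9.42 to 9.79 and 9.43 to 9.79, and at 1386073_at 6.05 to 6.65 and 6.11 to 6.36. The count of members that passed was 10 without 500 mg/kg replicate 4, where 5.51% of all genes passed, and 3 without 200 mg/kg replicate 1 or replicate 2, where 3.95% and 3.94% did.

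An F test of all 5 differences from vehicle was passed by 3 members, Psmd8 (adjusted p = 0.00348), Psma5 (0.0141) and Psmb1 (0.0261), where 3.37% of all genes passed, and 14 members had an unadjusted p under 0.05, as did 13.7% of all genes. No member had a slope over dose rank that passed in limma, as with 0% of all genes, and 1 member, Psmf1, had an unadjusted p under 0.05, as did 5.73% of all genes.

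The Gapdh ratio was lowest at 5 and 20 mg/kg, the doses at which members passed, and the 3' to 5' ratio of actin moved with them, at 2.52 ± 0.18 in vehicle rats, 1.68 ± 0.11 at 5 mg/kg, 1.59 ± 0.18 at 20, 1.86 ± 0.07 at 50, 2.43 ± 0.14 at 200 and 2.48 ± 0.22 at 500 mg/kg (SD, n = 4 each). No array at 5, 20 or 50 mg/kg had a Gapdh ratio as high as the lowest vehicle array, at 0.76. With this ratio as a covariate in the fit, 0 members and 0 of all 10205 genes passed in limma in any of the 8 comparisons. The differences of Psmb1 at 5 and 20 mg/kg then became -0.09 and -0.11, and those of Psmd8 0.04 and 0.05. Dose and this ratio moved together in these arrays and cannot be told apart where their ranges do not overlap.

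**Figure D5:**
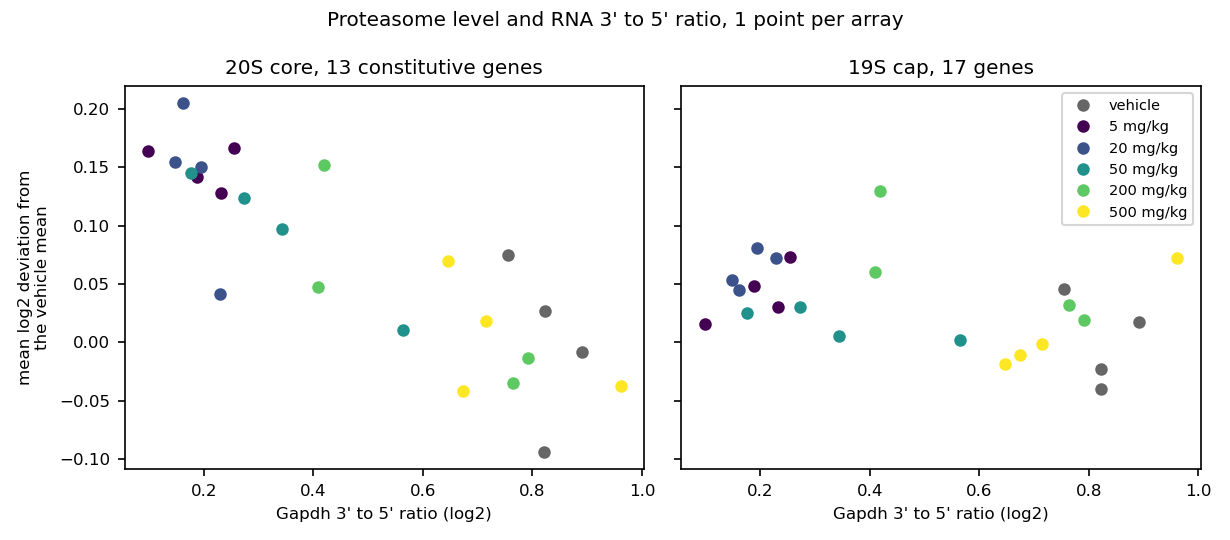
Mean log2 deviation from the vehicle mean of the 13 constitutive core genes (left) and the 17 cap genes (right) against the log2 ratio of 3' to 5' Gapdh control probe sets, 1 point per array, coloured by dose. The 5 and 20 mg/kg arrays sit at ratios up to 0.25 and the vehicle arrays at 0.76 or more, and the core genes are higher at the low ratios.

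Tissue markers were read as well. Of 5 neuron markers, 1 passed at 5 mg/kg, where 3.24% of all genes did, and 2 at 20 mg/kg, where 5.16% did. Tbr1, which marks excitatory neurons of cortex, rose by 1.11 ± 0.25 at 5 mg/kg and 1.16 ± 0.25 at 20 mg/kg. Its adjusted p in limma was 0.00931 and 0.00459. Rbfox3, a marker of mature neurons, fell by 0.66 at 20 mg/kg, and the other 3 did not pass. The mean of the 5 ranged from -0.23 to 0.13 at 5 mg/kg and -0.20 to 0.22 at 20 mg/kg, against -0.38 to 0.24 in vehicle rats. None of the 4 oligodendrocyte markers measured passed, and their mean ranged from -0.62 to -0.30 at 5 mg/kg and -1.05 to -0.33 at 20 mg/kg, against -0.43 to 0.44 in vehicle rats. The markers of astrocytes, microglia, endothelium, choroid plexus, thalamus, striatum, blood and cerebellum did not pass at any dose against vehicle, although the globin Hbb was higher by 0.98 at the low doses than at the high ones. In vehicle replicate 2 the 3 thalamus markers averaged 2.02 and the 3 choroid plexus markers 1.85 from the vehicle mean, while the other vehicle arrays lay between -0.80 and -0.58 for thalamus and between -0.82 and -0.33 for choroid plexus. At 5 and 20 mg/kg the thalamus mean was -0.86 ± 0.22 and -0.98 ± 0.21, and that of choroid plexus -0.72 ± 0.09 and -0.89 ± 0.12 (SD, n = 4 each). Without vehicle replicate 2, 4 proteasome genes passed at 5 mg/kg, where 2.12% of all genes did, and 5 at 20 mg/kg, where 3.6% did. The part of tissue composition in the proteasome differences was not tested.

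The promoters of the 4 genes that passed at both 5 and 20 mg/kg are shown, chosen by those calls alone. The calls of Psmd1, as given above, were near the threshold and depended on scaling. The promoters are taken from RefSeq (GRCr8) and run from 250 bases before to 50 after the start of the gene, 5' to 3' on the gene's strand. The capitals mark matches, on either strand, to the CCAAT box (CCAAT), to the core of the antioxidant response element (TGACNNNGC) or to an ETS site (CCGGAAG), which do not overlap in these windows.
Psma5 promoter, chr2:198584255-198584554, strand +: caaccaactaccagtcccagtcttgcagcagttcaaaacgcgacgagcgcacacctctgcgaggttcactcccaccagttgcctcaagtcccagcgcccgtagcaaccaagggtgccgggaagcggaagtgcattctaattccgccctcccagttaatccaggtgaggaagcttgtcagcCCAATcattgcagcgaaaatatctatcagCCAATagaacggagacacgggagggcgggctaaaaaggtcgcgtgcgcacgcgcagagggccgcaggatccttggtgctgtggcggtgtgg
Psmb1 promoter, chr1:65134721-65135020, strand -: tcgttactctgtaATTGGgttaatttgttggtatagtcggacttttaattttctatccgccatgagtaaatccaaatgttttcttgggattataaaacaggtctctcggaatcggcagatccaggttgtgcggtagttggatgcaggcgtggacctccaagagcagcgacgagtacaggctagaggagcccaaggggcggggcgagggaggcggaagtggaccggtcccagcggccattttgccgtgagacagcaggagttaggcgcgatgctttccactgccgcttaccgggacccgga
Psmd8 promoter, chr1:93608640-93608939, strand -: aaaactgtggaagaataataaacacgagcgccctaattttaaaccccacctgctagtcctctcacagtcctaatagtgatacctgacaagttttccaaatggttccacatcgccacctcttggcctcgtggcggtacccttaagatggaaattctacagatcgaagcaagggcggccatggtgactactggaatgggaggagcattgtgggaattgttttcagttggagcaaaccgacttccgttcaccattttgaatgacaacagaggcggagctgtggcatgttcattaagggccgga
Psmd1 promoter, chr9:94157721-94158020, strand +: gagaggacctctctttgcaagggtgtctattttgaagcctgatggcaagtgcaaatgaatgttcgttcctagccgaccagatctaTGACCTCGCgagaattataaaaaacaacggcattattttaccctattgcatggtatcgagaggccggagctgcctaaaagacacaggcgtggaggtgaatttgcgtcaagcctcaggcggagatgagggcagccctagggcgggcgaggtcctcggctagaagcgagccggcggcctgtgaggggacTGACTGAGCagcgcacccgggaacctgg
Psma5 had CCAAT at -70 and -41 from the start, and Psmb1 had it once, on the other strand, at -237. Psmd1, the member that fell, had the antioxidant core at -165 and 22, and these letters were not in the Psmd8 window, nor were those of the other motifs.

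Over the 42 members with a promoter in the table (all but Psma7, Psmd6, Psmd12 and Psmd14), CCAAT was found in 22, or 52.4%, against 37.5% both of all 33469 promoters of this length and of those of genes past the filter. The ETS letters were found in 15, or 35.7%, against 8.75% of all promoters and 17.9% of the 8488 belonging to genes past the filter. Psmc3ip and Psme3ip1, which are no subunits, are among the 42 and hold both the CCAAT and the ETS letters. The antioxidant core was found in 7, or 16.7%, against 12.1% and 14.5%. Among core and cap genes, CCAAT was found in 11 of 15 and 5 of 14, and the ETS letters in 3 of 15 and 7 of 14. Median GC content was 56.5% in the members, 51.7% in all promoters and 61.3% in those of genes past the filter. A match describes the letters only, and no binding was measured.

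Genes of the wider ubiquitin system were read from a list of 36, of which 28 passed the filter. At 5 mg/kg 2 were higher and 2 lower, where 3.24% of all genes passed, and at 20 mg/kg 2 were higher and 1 lower, where 5.16% did. None passed in limma at 50, 200 or 500 mg/kg, where 6, 0 and 0 had an unadjusted p under 0.05, against 10%, 4.4% and 6.7% of all genes. Their median difference was 0.05 at 5 mg/kg and 0.02 at 20 mg/kg. Akirin2 (1375627_at), which brings proteasomes into the nucleus, had log2 values of 6.47, 6.85, 6.42 and 6.45 in vehicle rats, 7.29, 7.35, 7.60 and 7.49 in 5 mg/kg rats, 7.62, 7.61, 7.48 and 7.16 in 20 mg/kg rats, 7.11, 7.09, 7.08 and 7.21 in 50 mg/kg rats, 6.38, 6.66, 6.99 and 7.06 in 200 mg/kg rats, and 6.51, 6.91, 6.84 and 6.31 in 500 mg/kg rats. All arrays at 5, 20 and 50 mg/kg lay above vehicle, and 200 and 500 mg/kg overlapped it. It rose by 0.89 ± 0.15 at 5 mg/kg (adjusted p = 0.00131) and 0.92 ± 0.15 at 20 mg/kg (adjusted p = 0.000579), more than any proteasome gene.

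The ubiquitin ligase Stub1 rose by 0.39 ± 0.11 at 5 mg/kg (adjusted p = 0.0311), and Nploc4, a cofactor of the segregase Vcp, rose by 0.31 ± 0.08 at 20 mg/kg (adjusted p = 0.0235). The shuttle factor Ubqln2 fell by 0.33 at 5 mg/kg and 0.34 at 20 mg/kg (adjusted p = 0.0378 and 0.0224), and Zfand5, a ubiquitin-binding activator of the proteasome, fell by 0.29 at 5 mg/kg (adjusted p = 0.0234). Between low and high doses 3 were higher, with Akirin2 at 0.63 ± 0.10, and 3 lower, with Zfand5 at -0.26 ± 0.05 and Ubqln2 at -0.29 ± 0.06. Of all genes 6.89% passed in that comparison. An F test was passed by 4 of the 28, against 3.37% of all genes. With the Gapdh ratio as a covariate none of the 28 passed in limma.

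Genes of antigen presentation, which the immunoproteasome serves, and of the interferon response were read from a list of 15, the antigen presentation list. The 6 that passed the filter were Tapbp, B2m, Erap1, Irf1, Mx1 and Irf7. The peptidase Erap1 (1368356_a_at) fell by 0.57 at 20 mg/kg (adjusted p = 0.0339), where 2.52% of all genes were lower, and no other member of the list passed in limma at any dose against vehicle. Erap1 had log2 values of 6.80, 6.86, 6.84 and 7.08 in 20 mg/kg rats, and 7.70, 7.80, 7.37 and 7.02 in vehicle rats, and 1 array at 20 mg/kg, at 7.08, was above the lowest vehicle array at 7.02. The call was lost without any 1 of 5 arrays, 20 mg/kg replicates 1, 2 and 3 and vehicle replicates 1 and 2.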

How the data were processed

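RNA of 24 rats was measured on 24 arrays. The deposited values are linear probe set intensities from GCOS, per the submitters' processing notes, with version and scaling not given in the sources used here. Arrays were grouped by dose from the labels, 4 in each of 6 groups, and their number limits the precision. Because the array medians of log2(intensity + 16) spanned 0.73, above the limit of 0.5, the intensities were quantile normalized. After that 16 was added and the log2 taken. Of 31099 probe sets, 57 controls and the 40% of lowest mean were left out, and 18626 were tested. limma 3.58.1 in R 4.3.3 fitted 6 group means with an intensity trend, and the p-values were adjusted by the Benjamini-Hochberg method over all probe sets tested. The fit was tested on simulated data.

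A single gene symbol was listed for 20826 probe sets, several for 436 and none for 9780. Each gene was read at its probe set of highest mean, and other probe sets are given where they disagree. The text names the main subunits whatever their values, the members that passed in each comparison, and in the other lists those of smallest p. Values per array are given for members that passed and for Psmb5, Psmb8, Psmc1 and Psmd11, and those of Psmd14, Akirin2 and Erap1 were added after their values were seen. Members, lists and the grouping into low and high doses were chosen with earlier results of these data known. Alternatives were the normalization, pseudocount, filter, intensity trend, array weights, the Gapdh 3' to 5' ratio as a covariate, the probe set, the arrays in the fit and each array left out. The covariate without 500 mg/kg replicate 4 and core minus cap over all 15 core genes were added after seeing the data. Nothing in the labels says whether rats shared a litter or a cage.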

Additional observations from a re-analysis of the deposited data

Results flagged for a closer look

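Within groups of 4 arrays, 144 sets of values were searched for an array whose gap to the nearest other exceeded Dixon's critical share of the group's range, and 6 were found. Chance flags about 1 in 20 such groups. In the 500 mg/kg group, replicate 4, the array that stood apart over all genes, held 3 of them. Its Psmd11 value was 10.38, against 9.78 to 9.87 in the other arrays of that dose. Its mean deviation from vehicle was 0.090 over the ATPase ring, against -0.0025 to 0.0098, and 0.14 over the lid, against -0.02 to -0.0051. At 20 mg/kg, replicate 1 had a Psmc1 value of 9.46, against 9.67 in each of the others, and an ATPase ring mean of 0.026, against 0.080 to 0.085 in the others. At 200 mg/kg, replicate 3 had a Psma5 value of 9.66, against 9.52 to 9.53.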

How the results depend on the processing

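With the Gapdh ratio as a covariate, with and without 500 mg/kg replicate 4, 0 proteasome genes passed at 5 (4 otherwise) and 20 mg/kg (6), between low and high doses (6) and in the F test (3), and 0 passed in the ubiquitin list (4, 3 and 6 otherwise) and, at 20 mg/kg, in the antigen presentation list (1). Constitutive core minus cap then became -0.11 and -0.011 at 5, -0.14 and -0.12 at 20, -0.031 and -0.064 at 50 mg/kg, and without that array -0.11 at 200 mg/kg. Over all 15 core genes it became -0.081 and -0.0030 at 5, -0.13 and -0.083 at 20, -0.0013 and -0.015 at 50 mg/kg, and without that array -0.11 at 200 mg/kg. Psmb1 turned to -0.094 and -0.12 at 5, -0.11 and -0.14 at 20 mg/kg and -0.11 and -0.12 between low and high doses, and without that array Psma1 and Psmd6 at 20 mg/kg turned to -0.18 and -0.036 and Psma2 between doses to -0.014. In the values as deposited, where the median of all genes shifted by 0.20 at 5, 0.38 at 20 mg/kg and 0.28 between low and high doses, all members that passed were higher: 5 at 5, 34 at 20 mg/kg and 39 between doses, with 27 in the F test, where 3.34%, 38.3%, 51.1% and 30% of all genes passed. The ubiquitin list then gave 2, 20 and 19, the antigen list 0 at 20 mg/kg and 4 between doses, and Psmd1 at 20 mg/kg and Psme4 between doses turned to 0.076 and 0.071. Median centring gave 5 higher and 0 lower at 5 mg/kg, 9 and 0 at 20, and 3 and 0 between doses, where 3.02%, 4.67% and 3.23% of all genes were higher, and 0 in the antigen list at 20 mg/kg, as did no filter. Array weights gave 15 between doses and 9 in the F test (13% and 8.48% of all genes), the 8 arrays of both groups alone 2 and 3 at 5 and 20 mg/kg (2.66% and 4.26%), and any probe set 1 at 50 mg/kg (1.29%). The cause of these changes was not tested.

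With each array left out, proteasome counts ran from 2 to 6 at 5, 2 to 8 at 20 mg/kg, 3 to 10 between doses and 2 to 5 in the F test, where all genes ran from 1.60% to 6.06%, 2.84% to 8.85%, 3.94% to 7.62% and 2% to 4.61%. They were 2 at 5 mg/kg without 5 mg/kg replicate 3 or vehicle replicate 1. The 20 mg/kg count was 2 without vehicle replicate 1 and 3 without vehicle replicate 4 or 20 mg/kg replicate 1 or 3. Without 500 mg/kg replicate 4 the F test gave 5. Constitutive core minus cap ran from 0.09 to 0.14 at 5 mg/kg, 0.032 to 0.15 at 20, 0.04 to 0.10 at 50, -0.07 to -0.00065 at 200 and -0.07 to 0.00095 at 500 mg/kg, and over all 15 core genes from 0.04 to 0.078, -0.017 to 0.074, 0.023 to 0.086, -0.090 to -0.016 and -0.068 to -0.0011 at these doses. Ubiquitin counts ran from 1 to 5 at 5, 1 to 7 at 20, 0 to 2 at 50 mg/kg and 4 to 6 between doses, and antigen counts from 0 to 1 at 5 and at 20 mg/kg. At 50 mg/kg 0.402% of all genes passed with all arrays in the fit. The share of all genes at that dose with an array left out is not given here, so the ubiquitin counts at 50 mg/kg cannot be set against it. Counted as pairs of a named member's result and 1 array left out, 299 kept direction and call, 85 lost the call and 0 turned. Counted as pairs of such a result and another setting, 117 were kept, 43 lost the call and 11 turned. Of the 117, 1 was for any probe set of the gene, where direction alone was judged. No paired analysis was possible because the labels give no replicate numbers that groups share.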
